A study of Mus musculus and synthetic construct with 15 samples.

Results

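Atrial enhancer activity was measured in postnatal mouse heart as the RNA made from each candidate region set against its DNA in the virus pool. Described here are the 2601 regions, of 3820 in the library, whose mean count over the 5 DNA libraries was at least 10. The other 1219 regions had less DNA and were not tested. Each region is 400 bp of the mouse genome in build mm10.

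The study used a massively parallel reporter assay carried by AAV9, a serotype of adeno-associated virus that infects heart muscle, and by its title the subject was enhancers that are selective for a chamber. The RNA group was 5 atrial libraries, labelled as cardiomyocytes of wild-type mice that received the AAV9 library. Virus was given on postnatal day 0 and tissue was taken on postnatal day 7. The control group was 5 libraries labelled as DNA of the AAV9 library, and the sources used here do not say whether every atrial replicate received the virus preparation that was sequenced. Nothing in the labels says that libraries of a group came from separate animals or virus preparations, so p-values measure the spread between these libraries, which may be technical. The assay counts reporter RNA and not the cells' own transcripts, so the labelled tissue and cell type could not be checked against marker genes. RNA was counted per library of many cells, and fewer cells that transcribe a reporter and less RNA per cell cannot be told apart.

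Enhancers are stretches of DNA that bind transcription factors and raise transcription from a promoter, often at a distance and in particular cell types. In the heart they are bound by factors such as GATA4, MEF2, TBX5, NKX2-5 and TEAD1, and by p300, a histone acetyltransferase that serves as a coactivator and whose binding is widely used to find enhancers. In a reporter assay of this kind a region whose RNA exceeds its share of the DNA pool is read as active, and one whose RNA falls short of it as weak or silent. The library names each region with class tags and with a group. The tags aMTF+p300, aMTF-p300, vMTF+p300, vMTF-p300, GeneAVB, p300AVB, ESC-Neg and BNA, and the groups MTF or P300, spMTF or spP300, TF3-4, TF1-2 and Neg, are used as given. The group Neg and the tag ESC-Neg serve here as negative controls.

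Sequence could be shown only for regions that overlap a RefSeq promoter window of GRCm38, the same build as mm10, which holds the 250 bases before a gene's start. Parts of those windows that lie inside a tested region are printed for 5 promoters, chosen after values were seen because they cover the range from high to low activity. In 2 of them the window runs across the border of a pair of touching regions with opposite values. Capitals mark matches to the motifs searched on both strands: MEF2 by its name, GGAATG for TEAD, AGATAA for GATA factors, AAGGTCA for ERR, AGGTGT for TBX5, CACTTAA for NKX2-5 and TGACAG for MEIS. Each is written 5′ to 3′ on the strand of the gene.
Gm32492 promoter, chr19:56668858-56669066, plus strand, inside a region with a log2 ratio of 1.46: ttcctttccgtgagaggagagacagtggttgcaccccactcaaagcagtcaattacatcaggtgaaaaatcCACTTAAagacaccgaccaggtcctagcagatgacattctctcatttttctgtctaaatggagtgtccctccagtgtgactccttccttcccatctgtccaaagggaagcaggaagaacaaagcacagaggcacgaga
Gm34026 promoter, chr8:106399795-106400044, plus strand, inside a region at 1.41: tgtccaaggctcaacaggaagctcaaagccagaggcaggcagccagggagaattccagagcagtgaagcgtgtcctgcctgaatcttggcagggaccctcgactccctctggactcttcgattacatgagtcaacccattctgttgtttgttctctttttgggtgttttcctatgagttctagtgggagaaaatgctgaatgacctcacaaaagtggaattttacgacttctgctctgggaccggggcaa
Gm38675 promoter, upstream part, chr5:144258231-144258374, plus strand, inside a region at 1.24: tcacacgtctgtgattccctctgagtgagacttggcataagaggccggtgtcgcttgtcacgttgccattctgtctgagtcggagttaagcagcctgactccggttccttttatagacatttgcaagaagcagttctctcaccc
Gm38675 promoter, part next to the start, chr5:144258375-144258480, plus strand, inside a region at -2.53: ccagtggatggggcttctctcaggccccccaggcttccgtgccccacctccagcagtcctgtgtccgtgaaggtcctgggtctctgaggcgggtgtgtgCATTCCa
Gm32352 promoter, window inside the region at 0.52, chr8:119670937-119671186, minus strand: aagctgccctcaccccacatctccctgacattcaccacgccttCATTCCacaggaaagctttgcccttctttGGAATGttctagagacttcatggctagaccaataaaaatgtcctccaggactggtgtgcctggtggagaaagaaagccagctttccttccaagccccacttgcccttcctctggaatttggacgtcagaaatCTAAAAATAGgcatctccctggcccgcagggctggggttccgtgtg
Gm32352 promoter, window of a second start inside the region at -2.33, chr8:119670634-119670815, minus strand: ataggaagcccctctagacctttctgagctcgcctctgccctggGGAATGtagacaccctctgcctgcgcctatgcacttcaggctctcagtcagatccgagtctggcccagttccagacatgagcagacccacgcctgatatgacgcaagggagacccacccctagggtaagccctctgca
Myl2 promoter, chr5:122092655-122092723, plus strand, inside a region at -3.13: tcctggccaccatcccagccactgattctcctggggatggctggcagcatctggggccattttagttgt

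In the Gm32492 stretch there was 1 NKX2-5 match, which 1.66% of all 32851 promoter windows hold at the same positions. The high Gm32352 window held 1 MEF2 match and 2 TEAD matches, and over 250 bases 1.69% of all windows hold a MEF2 match and 12.6% at least 1 TEAD match. A single TEAD match lay in the low Gm32352 window and in the low part of Gm38675, where 9.19% and 5.06% of windows hold one. The Myl2 region also holds part of the window of a second start, chr5:122092939-122093054, which is not printed because it lies downstream of the first start, and this part held 1 MEIS match, as 7.83% of windows do at the same positions. No searched letters were found in the other printed stretches, and no matches overlapped each other. A match is a description of letters and not of a bound factor.

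The 5 DNA libraries held 2312820 to 2958271 counts. Atrial replicate 1 held 877773 and replicates 2 to 5 held 1718563 to 2369985. By counting error alone, 0 counts of a region allowed up to 3, which is 3.42 CPM (the library's counts scaled to the usual common total) in replicate 1 and 1.27 to 1.75 CPM in replicates 2 to 5. Replicate 1 stood apart in other ways too: regions without a single DNA count took 0.0197% of its counts and 3.34 to 3.86% of those of replicates 2 to 5. Correlations of log2 CPM over the tested regions were 0.822 to 0.851 between replicate 1 and the others, 0.935 to 0.947 among the others and 0.982 to 0.994 among the DNA libraries. The tested regions, which passed the DNA minimum, held 99.1% of the counts of replicate 1 and 87.8 to 89.3% of those of replicates 2 to 5. Whether the sequenced DNA was the input of replicates 2 to 5 was not tested, and each ratio of RNA to DNA rests on it. The part of these differences in the results was not tested, and the main counts are given with and without replicate 1.

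Most regions departed from their share of the DNA pool in atrium. In edgeR's quasi-likelihood test with Benjamini-Hochberg adjustment, 1944 of 2601 regions (74.7%) differed between atrial RNA and DNA. Of these, 999 (38.4%) were higher in RNA and 945 (36.3%) were lower. The difference was at least 2-fold for 730 higher regions (28.1%) and for 543 lower ones (20.9%). All 5 atrial values lay above or below all 5 DNA values in 1605 regions (61.7%), and 657 regions did not pass the test. Without atrial replicate 1 the calls were 1010 higher and 964 lower. A stricter count asked for a 2-fold call with a 2-fold difference of the same sign in replicate 1 alone and in the mean of replicates 2 to 5, and 570 higher and 422 lower regions met it.

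The zero of these ratios is set by TMM scaling, which takes the bulk of the regions as the reference. Scaling by library totals over all regions moved the median log2 ratio by 0.33 and gave 1189 higher and 676 lower regions, so that 63.8% of the calls were higher in place of 51.4%. Scaling on the Neg regions moved it by 0.40 and gave 1264 and 644, with 66.2% of the calls higher. No region that passed in both fits had the opposite sign under either scaling. Directions below are relative to the TMM zero, and a class or list median just below 0 turns positive under both other scalings.

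The ratio fell as the DNA count of a region rose. In the 854 regions with 10 to under 100 DNA counts on average, the log2 ratio had a median of 1.21 and 62.2% were higher. It was 0.20 in the 570 regions at 100 to under 300, where 40.5% were higher, and -0.66 in the 1177 regions at 300 or more, where 20.1% were higher. Neg regions showed the same order, with medians of 0.77, -0.33 and -0.94. The DNA count is the denominator of the ratio, so activity is also given against Neg regions of the same DNA range. The 95th percentile of their log2 ratios was 3.60, 1.31 and 0.34 in the 3 ranges. Of the regions outside Neg, 11.2% lay above the percentile taken over all ranges and 19.7% above that of their own range.

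**Figure D1:**
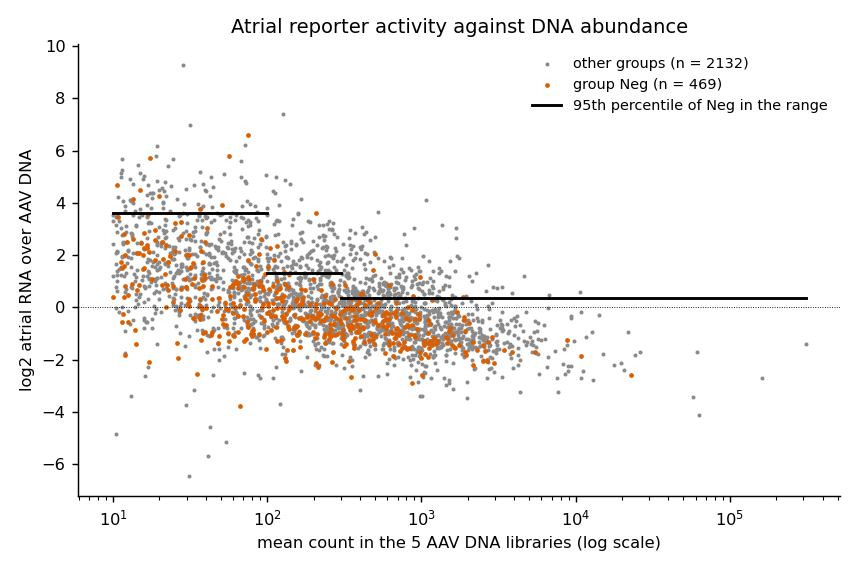
Log2 atrial RNA over AAV DNA (vertical axis) against the mean DNA count of each of the 2601 tested regions (horizontal axis, log scale), with the 469 regions of Neg in orange and the other groups in grey. Bars mark the 95th percentile of Neg regions, which steps down from 3.60 to 1.31 and 0.34 across the 3 DNA ranges as the whole cloud falls.

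Regions of the group MTF or P300 were active most often and Neg regions least often. Of 1170 MTF or P300 regions, 543 (46.4%) were higher in atrial RNA and 381 (32.6%) lower, with a median log2 ratio of 0.29 beside 0.04 over all regions. The 520 regions of spMTF or spP300 had 39.8% higher, 33.5% lower and a median of 0.15. Fewer were higher in TF3-4 (30.4% of 214, median -0.30) and TF1-2 (30.3% of 228, median -0.20), where 44.9% and 42.1% were lower. Among 469 Neg regions 24.5% were higher and 42.2% lower, with a median of -0.33.

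The spread inside each group was wider than the gaps between groups. The middle 50% of MTF or P300 regions ran from -0.69 to 1.61 and that of Neg regions from -1.03 to 0.68. The gap between these groups was nevertheless found in each library: the median of MTF or P300 exceeded that of Neg by 0.59 to 0.66 in the 5 atrial libraries, replicate 1 included. For TF1-2 the same difference was 0.03 to 0.25, and for TF3-4 it ran from -0.03 to 0.17 and changed sign between libraries. Under the other 2 scalings the median of every group lay above 0, and on Neg scaling it was 0.70 for MTF or P300 and 0.08 for Neg.

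The order of MTF or P300 over Neg was present within each DNA range. At DNA counts of 300 or more, library medians were -0.49 to -0.43 for MTF or P300, -0.66 to -0.54 for spMTF or spP300 and -0.99 to -0.85 for Neg, and these 3 ranges did not overlap. In the same range 27.3% of MTF or P300 regions and 5.14% of Neg regions were higher, against 20.1% of all regions. Fitted and scaled on the regions of this range alone, 46.1% of MTF or P300 and 22.9% of Neg regions were higher, and the MTF or P300 median was 0.19. At 100 to under 300, 56.1% of MTF or P300 and 16.5% of Neg regions were higher, against 40.5% of all. At 10 to under 100 these shares were 70.9% and 48.6%, against 62.2%.

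**Figure D2:**
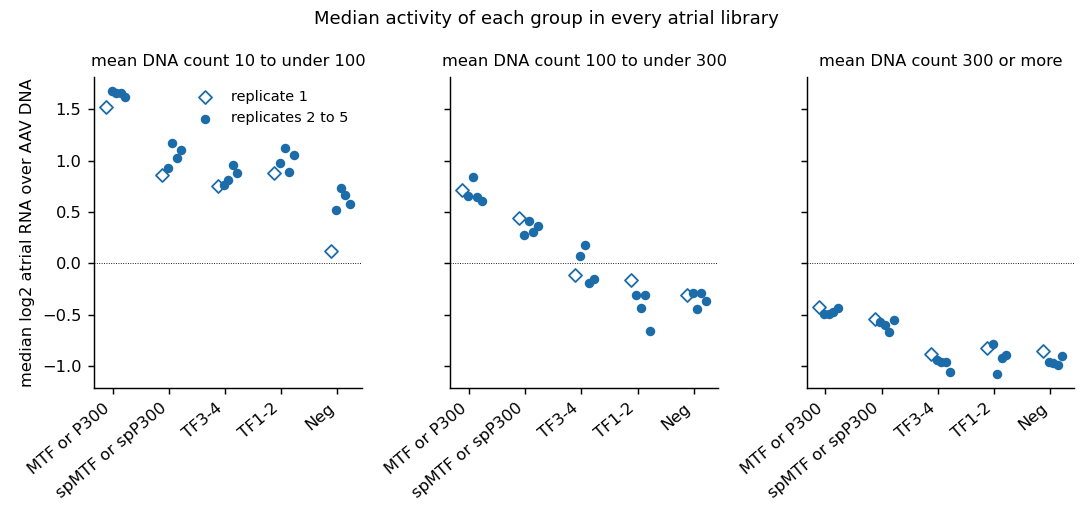
Median log2 atrial RNA over AAV DNA (vertical axis) of the regions of each group, with 1 point per atrial library and replicate 1 as an open diamond, in 3 ranges of mean DNA count. In each range the 5 points of MTF or P300 lie above the 5 points of Neg, while the points of TF3-4, TF1-2 and Neg overlap at a DNA count of 300 or more.

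Over all DNA ranges together, the regions tagged vMTF-p300 and vMTF+p300 had larger shares of higher regions in atrium than the other class tags described here. At DNA counts of 10 to under 100 the order differed, with 75.3% of aMTF+p300, 72.7% of vMTF+p300 and 71.2% of vMTF-p300 regions higher. Fitted on regions with a DNA count of at least 300 alone, the shares were 54.5%, 55.3% and 51.1%. Of 135 vMTF-p300 regions 60.7% were higher and 21.5% lower, with a median log2 ratio of 0.93, and of 389 vMTF+p300 regions 53.0% were higher and 25.2% lower, with a median of 0.64. The tags that begin with aMTF followed, with 48.5% of 266 aMTF+p300 regions higher at a median of 0.31 and 46.4% of 153 aMTF-p300 regions higher at a median of 0.48. Median DNA counts differed between these tags, at 299 for aMTF+p300, 179 for aMTF-p300, 217 for vMTF+p300 and 153 for vMTF-p300. From the lowest to the highest DNA range, the median log2 ratio was 2.20, 0.53 and -0.18 for aMTF+p300 and 1.65, 0.34 and -0.31 for aMTF-p300. It was 1.73, 0.82 and -0.26 for vMTF+p300 and 1.68, 1.19 and -0.29 for vMTF-p300. Within each range the aMTF+p300 median was thus above that of aMTF-p300, although over all ranges together it was below. No test of these differences was made, since regions are not replicates.

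Regions tagged GeneAVB or p300AVB sat close to the background. Of 865 GeneAVB regions 34.7% were higher and 42.2% lower, with a median of -0.13. Of 421 p300AVB regions 35.4% were higher and 36.6% lower, with a median near 0. The 540 ESC-Neg regions had 26.3% higher, 41.1% lower and a median of -0.28. On Neg scaling the medians of GeneAVB and ESC-Neg were 0.27 and 0.12. Only 6 of 11 BNA regions were tested, of which 2 were higher and 3 lower.

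Within a tag, the share of higher regions differed between groups. GeneAVB regions of the group MTF or P300 were higher in 36.7% of 512 cases, and GeneAVB regions of TF1-2 in 19.1% of 89. Regions tagged p300AVB ran from 27 of 60 in MTF or P300 to 16 of 64 in TF3-4. Within MTF or P300, vMTF-p300 regions were higher in 61.6% of 86 cases and aMTF+p300 regions in 49.3% of 201. Regions with the ESC-Neg tag outside the group Neg were few: 11 of 22 in MTF or P300 and 13 of 37 in TF1-2 were higher.

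Combinations of tags had small numbers. The 12 regions tagged GeneAVB, aMTF+p300 and p300AVB together had 9 higher and 1 lower, with a median of 1.05. The 27 regions tagged GeneAVB and aMTF+p300 had 10 higher and 11 lower, with a median of -0.19, beside 0.30 for the 218 regions tagged aMTF+p300 alone. Their median DNA counts also differed, at 174, 710 and 279.

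Measured against Neg regions of the same DNA range, the order of the tags was similar. The share above that 95th percentile was 34.1% of vMTF-p300, 30.3% of vMTF+p300, 28.2% of aMTF+p300 and 22.9% of aMTF-p300 regions. It held 130 of 865 GeneAVB regions, 11.9% of p300AVB and 6.30% of ESC-Neg regions. By group it was 293 of 1170 MTF or P300 regions, 16.3% of spMTF or spP300, 11.2% of TF3-4 and 8.33% of TF1-2 regions, beside 5.12% of Neg regions, which the percentile itself fixes. In the lowest DNA range the shares were smallest, and the Neg regions spread most: 14.8% of MTF or P300 regions exceeded it, against 35.7% at 100 to under 300 and 26.8% at 300 or more.

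**Figure D3:**
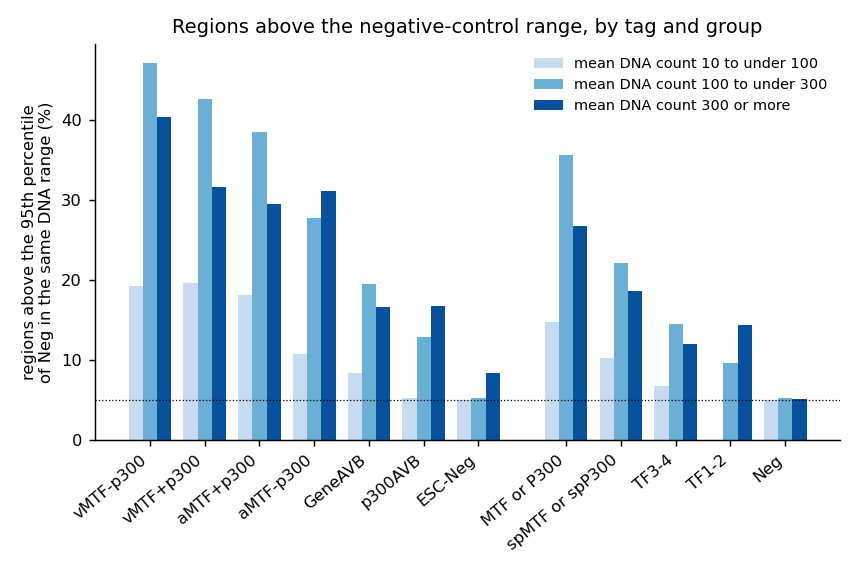
Share of tested regions (percent, vertical axis) above the 95th percentile of Neg regions of the same DNA range, for 7 class tags and 5 groups, with 1 bar per range of mean DNA count and a dotted line at 5 percent. The tags that contain MTF reach up to 47.2% at a DNA count of 100 to under 300, where ESC-Neg stands at 5.22%.

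By position, 505 of 1368 regions with their midpoint inside a protein-coding gene (36.9%) were higher, as were 378 of 1000 (37.8%) outside a gene and within 100 kb of one. Of the 233 regions with no protein-coding gene within 100 kb, 49.8% were higher and 22.3% lower, but their median DNA count was 114 beside 262 for the others. At DNA counts of 300 or more the share higher was 30.4% of 69 such regions, 19.4% of 638 inside a gene and 19.6% of 470 near one.

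The highest single regions with ample DNA were tightly measured. At mean DNA counts of 300 or more, 29 regions were at least 4-fold higher and 6 at least 8-fold higher in atrial RNA. Those 29 were 24 of the 575 MTF or P300 regions of this range, 4 of 230 in spMTF or spP300 and 1 of 175 in Neg. None was among the 100 regions of TF3-4 or the 97 of TF1-2. Regions named by rule had to pass the test without overlap between atrial and DNA libraries, and with replicate 1 at least 2-fold in the same direction. These traits of the regions named by rule were therefore fixed by their selection. Genes below are the nearest protein-coding gene body, which does not say that the region acts on that gene. A region called without a gene has no protein-coding gene within 100 kb, and other genes may lie there. Values are CPM after TMM scaling.

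A region on chromosome 10 with no gene within 100 kb (chr10:84230341-84230740, tag vMTF+p300) led this range. Its CPM in atrial replicates 1 to 5 were 8919, 7969, 8881, 9058 and 7771, and in DNA 468, 494, 369, 630 and 494. Every atrial value was more than 10 times the highest DNA value, and the log2 ratio was 4.12 ± 0.13 (SE, n = 5 and 5, adjusted p = 8.7e-12 by edgeR). Near Rasl11b, a small GTPase-like gene (chr5:74147460-74147859, vMTF-p300), atrial values were 2932, 2958, 3156, 3565 and 2826 CPM against 242, 254, 212, 267 and 242 in DNA. The groups did not overlap, and the log2 ratio was 3.66 ± 0.10.

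A second region without a gene on chromosome 10 (chr10:118747035-118747434, aMTF+p300) had 5682 ± 206 CPM in RNA and 631 ± 62.0 in DNA (SD, n = 5 each), a log2 ratio of 3.17 ± 0.08. The region 8678 bases from Grasp (chr15:101241235-101241634, vMTF+p300) had 1641 ± 110 and 192 ± 9.78 CPM and a ratio of 3.10 ± 0.08. Inside Fhod3 on chromosome 18, which encodes a formin of the sarcomere, an aMTF-p300 region had 6380 ± 381 CPM in RNA and 777 ± 50.9 in DNA, a log2 ratio of 3.04 ± 0.08. All 3 were as high in replicate 1 as in the others.

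Inside Lbh, a transcriptional regulator named for limb bud and heart (chr17:72926203-72926602, GeneAVB), atrial values were 3842, 3440, 3541, 3378 and 2789 CPM against 408 to 424 in DNA, a log2 ratio of 3.02 ± 0.09. Inside Cilk1, a kinase of primary cilia (chr9:78139419-78139818, aMTF-p300), the ratio was 2.96 ± 0.14, from 1239 ± 74.5 and 159 ± 34.3 CPM. A p300AVB region without a gene on chromosome 13 (chr13:35398107-35398506) reached 2.88 ± 0.12, with 1328 to 1783 CPM in RNA and 162 to 254 in DNA. In none of these regions did an atrial library fall into the range of the DNA libraries, as the rule required.

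In the range of 100 to under 300 DNA counts the largest ratio belonged to a region inside Sphkap, which encodes an anchor protein for protein kinase A (chr1:83345514-83345913, GeneAVB and vMTF+p300). Its atrial values were 1891, 1664, 1624, 1489 and 1738 CPM and its DNA values 46.3, 62.7, 44.5, 53.3 and 57.9. The 5 atrial libraries lay close together, and the log2 ratio was 4.99 ± 0.12 (adjusted p = 1.9e-12 by edgeR). A region 30664 bases from Fxr1, an RNA-binding protein of striated muscle (chr3:33989195-33989594, aMTF+p300), followed at 4.72 ± 0.12, with 1713 ± 252 against 65.1 ± 3.57 CPM. Regions inside Insr, the insulin receptor (chr8:3187531-3187930, vMTF+p300), and inside Pcp4l1 (chr1:171189035-171189434, aMTF+p300) stood at 4.44 ± 0.16 and 4.39 ± 0.15.

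In some other classes the strongest regions at a DNA count of at least 100 had smaller ratios than these 4. For aMTF-p300 it lay inside Bcas1 (chr2:170365142-170365541), with 829 ± 90.2 CPM against 55.3 ± 13.3 and a log2 ratio of 3.90 ± 0.16. For TF3-4 it lay near Rnase2a (chr14:51265546-51265945) at 3.33 ± 0.17. The highest Neg region that met the same rule had no gene within 100 kb (chr1:185822335-185822734) and reached 2.34 ± 0.19, with 228 to 327 CPM in RNA and 37.8 to 79.8 in DNA. That control region lay above the Neg percentile of its DNA range.

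Below a DNA count of 100 the ratios were larger and rested on few DNA counts. The region without a gene on chromosome 4 (chr4:105364498-105364897, aMTF+p300) had 2106, 2008, 1868, 1825 and 1641 CPM in RNA from 23 to 42 DNA counts a library, a log2 ratio of 6.99 ± 0.16. Inside Slc8a1, the sodium-calcium exchanger of heart muscle, atrial values of 646, 396, 495, 482 and 413 CPM stood against 5.56 to 11.5 in DNA. Near Hint1 replicate 1 was far lower, at 42.8 CPM, than replicates 2 to 5 at 309 to 387, and its DNA values were 3.33 to 9.58.

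**Figure D4:**
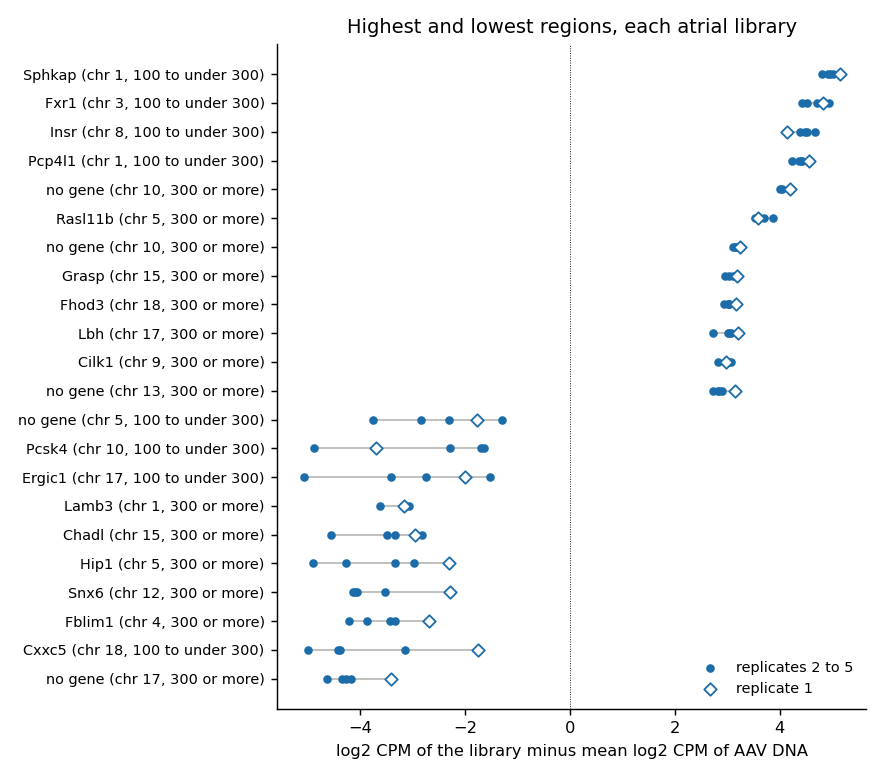
Log2 CPM of each atrial library minus the mean log2 CPM of AAV DNA (horizontal axis) for the highest and lowest regions at a mean DNA count of at least 100, named by gene, chromosome and range of mean DNA count, with replicate 1 as an open diamond. The 5 libraries of each high region lie close together, while those of the low regions spread over a wider range, up to several log2 units where DNA counts are 100 to under 300.

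The lowest regions with ample DNA had little RNA for their share of the DNA pool. At mean DNA counts of 300 or more, 9 of 1177 regions were at least 8-fold lower in atrial RNA. They were 5 of 575 regions in MTF or P300, 2 of 100 in TF3-4 and 2 of 97 in TF1-2, with none of 230 in spMTF or spP300 and none of 175 in Neg. The lowest was a region without a gene on chromosome 17 (chr17:4626158-4626557, vMTF+p300), whose mean DNA count of 63227 was among the largest of the pool. Its atrial values were 2757, 1642, 1191, 1454 and 1523 CPM and its DNA values 26996, 30757, 32692, 26508 and 30780. Replicate 1 was the highest of the atrial libraries, and all 5 lay far below DNA, at a log2 ratio of -4.11 ± 0.21 (adjusted p = 2.5e-09 by edgeR).

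The region near Snx6, a sorting nexin (chr12:54734526-54734925, aMTF+p300), had a similar pattern, with 5438 CPM in replicate 1, 1520 to 2326 in replicates 2 to 5 and 25461 to 28032 in DNA. Its log2 ratio was -3.43 ± 0.39. Inside Fblim1, a filamin-binding adaptor of cell adhesions (chr4:141598471-141598870, GeneAVB), atrial values were 143, 90.5, 84.3, 62.3 and 49.0 CPM against 813 to 986 in DNA, a ratio of -3.46 ± 0.23. Regions inside Hip1, a clathrin adaptor (chr5:135488873-135489272), Chadl (chr15:81693651-81694050) and Lamb3, a laminin chain (chr1:193330145-193330544), stood at -3.38 ± 0.40, -3.37 ± 0.27 and -3.23 ± 0.11. No atrial library overlapped the DNA range in any of them, as the rule required.

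Low RNA was also found in each class. The lowest of a class is given here among regions that met the rule for named regions at a DNA count of at least 100. By this rule the lowest vMTF-p300 region lay at the Bri3 gene (-2.53 ± 0.30). The lowest aMTF-p300 region lay inside Atp2b2, a calcium pump of the plasma membrane (-2.69 ± 0.19), and the lowest ESC-Neg region near Zfp217 (-2.99 ± 0.29). The lowest spMTF or spP300 region lay near Zswim4 (-2.85 ± 0.21), and the lowest Neg region near Pik3c3 on chromosome 18 (-2.88 ± 0.20). At DNA counts of 100 to under 300 the lowest ratios, near Cxxc5 on chromosome 18 (-3.70 ± 0.55), inside Ergic1 (-2.71 ± 0.49), inside Pcsk4 (-2.45 ± 0.47) and at a region without a gene on chromosome 5 (-2.30 ± 0.39), had larger errors. In Ergic1 the 5 atrial values ran from 0.557 to 17.0 CPM against 43.4 to 55.6 in DNA.

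No tested region was at 0 in all 5 atrial libraries. The regions with at most 3 atrial counts in all were 3, with mean DNA counts of at most 41.6. Inside Ahdc1 (chr4:133016211-133016610) there was 1 atrial count against 155 DNA counts, and inside Xkr6 (chr14:63681477-63681876, aMTF-p300) 3 against 208. A region in Gm3095, which is not among these 3, had 6 atrial counts at a mean DNA count of 54. It had 0 to 1.99 CPM in RNA and 21.7 to 29.7 in DNA, but near-identical copies of this gene exist and the counts of its region are uncertain. Silence could therefore be shown only down to the limit that these counts allow.

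Regions near genes of calcium handling, which release and take up the calcium that drives contraction, were higher more often than lower. Of 12 tested regions near 8 of the 13 listed genes, 9 were higher, 2 lower and 1 did not pass, with a median log2 ratio of 1.89 beside 0.04 over all regions. Only 6 of the 12 had a DNA count of at least 100, and 6 lay above the Neg percentile of their DNA range. The region inside Camk2d, the main calmodulin-dependent kinase of heart (chr3:126746335-126746734, vMTF+p300), had 1195, 1138, 1337, 1132 and 951 CPM in RNA against 107 to 141 in DNA. These did not overlap, as the rule required, at a log2 ratio of 3.23 ± 0.11. Inside Casq2, the calcium store protein calsequestrin (chr3:102099305-102099704), the ratio was 1.29 ± 0.10, from 931 to 1277 CPM against 391 to 467.

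Other members of the list had fewer DNA counts or lower ratios. Regions at Cacna1c, the calcium channel of heart muscle, had log2 ratios of 2.87 and 4.27, and those at Atp2a2, the calcium pump of the sarcoplasmic reticulum, and Sln, its small inhibitor in atrium, 2.49 and 3.29, all at DNA counts under 100. Jph2, which holds membrane and calcium store together, had 3 regions with enough DNA, of which 1 was higher at 1.01 and 2 were lower. In the lowest of them (chr2:163353562-163353961) atrial values of 254, 186, 371, 172 and 252 CPM lay under 566 to 635 in DNA, a ratio of -1.29 ± 0.17. At Ryr2, the calcium release channel, 1 of 2 regions was higher at 0.91.

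Near sarcomere genes 12 of 23 regions were higher and 7 lower, with a median of 0.55, and 9 lay above the Neg percentile of their range. Inside Ldb3, a protein of the Z-disc (chr14:34573943-34574342, vMTF+p300), atrial values were 912, 890, 821, 905 and 865 CPM against 105 to 145 in DNA, a log2 ratio of 2.80 ± 0.10. Near Myh7, the slow myosin heavy chain that is a ventricular gene (chr14:55004004-55004403), 2419 ± 120 CPM stood against 708 ± 21.6, a ratio of 1.77 ± 0.07. The single region at Actn2, alpha-actinin, was higher at 0.82, and both regions of Csrp3, a muscle LIM protein, at 1.08 and 3.09. Tnni1, the slow skeletal troponin I, had 1 region, which was lower at -0.66.

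Near atrial cardiomyocyte genes the calls split evenly, with 13 of 28 regions higher, 13 lower and a median of 0.20. Myl7, the atrial myosin light chain, had a region on each side. The region 7404 bases from the gene (chr11:5889034-5889433, GeneAVB, aMTF+p300 and p300AVB) had 1505, 1145, 936, 1046 and 1588 CPM in RNA against 152 to 181 in DNA, a log2 ratio of 2.85 ± 0.15. The region 4197 bases from it (chr11:5892241-5892640, GeneAVB and p300AVB) had 855, 698, 746, 668 and 782 against 2355 to 2492, a ratio of -1.69 ± 0.08. Neither pair of groups overlapped, as the rule required.

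Other atrial genes varied in the same way. Bmp10, a growth factor of the atria, had 3 of 4 regions higher, from 0.27 to 3.14 over the 4, and Tbx5, a transcription factor of atrial and septal development, 2 of 3, the best measured inside the gene at 1.21 ± 0.10 (chr5:119877235-119877634). Myl4, the other atrial light chain, had 2 of 3 higher at up to 1.35. Kcnj5, a subunit of the atrial acetylcholine-gated potassium channel, had 4 of 5 lower, the lowest (chr9:32335602-32336001) at -1.74 ± 0.07 with 737 to 814 CPM against 2483 to 2835. Both regions of Gja5, the atrial gap junction protein connexin 40, were lower, at -0.69 and -1.55, as was the single region of Cacna2d2, at -1.34.

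Genes of the ventricle gave a similar split in atrium, with 9 of 26 regions higher, 9 lower and a median of -0.05. The region that covers part of the Myl2 promoter printed above, at the ventricular myosin light chain, was among the lowest, with 89.6, 104, 89.9, 64.0 and 78.0 CPM in RNA against 720, 729, 874, 671 and 727 in DNA. All 5 atrial libraries were low, at a log2 ratio of -3.13 ± 0.13. Irx4, a transcription factor of the ventricle, had 2 of 5 regions higher and 2 lower, from -1.97 to 2.73. Of the 5 Lbh regions 3 were higher.

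Transcription factor genes of the heart had 14 of 26 regions higher and 7 lower, with a median of 0.50. Both regions of Tead1 were higher, the stronger inside the gene (chr7:112753793-112754192, vMTF-p300) at 2.24 ± 0.13, from 314 ± 22.2 and 66.3 ± 7.97 CPM. Esrrb, an orphan nuclear receptor, had 1 region at 2.57 ± 0.16 (chr12:86498831-86499230) and 1 at -1.55. Both regions of Mef2a were higher, at up to 1.43, but had DNA counts under 100, and neither lay above the Neg percentile of its range. The single region of Gata6 was higher at 0.82 and lay above that of its own range. Myocd, the coactivator of serum response factor, had 1 of 5 regions higher and 2 lower.

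Near genes of conduction, ion channels and gap junctions fewer regions were higher. None of 6 regions near conduction genes was higher and 3 were lower, with a median of -0.72, and only 3 of the 6 had a DNA count of at least 100. The 3 lower regions lay near Tbx3, a repressor of the conduction system (-0.96 ± 0.14), inside Cacna1g, a T-type calcium channel (-1.16 ± 0.17), and near Id2 (-1.28 ± 0.10). The Id2 region is a negative control, of tag ESC-Neg and group Neg. All 3 had DNA counts of 300 or more, a range where 61.1% of all regions were lower and the median was -0.66. With a DNA minimum of 300 the Tbx3 region no longer passed, at -0.30. Among ion channels and gap junctions 3 of 13 regions were higher and 7 lower, with a median of -0.50. The highest with ample DNA lay inside Kcnq1, a delayed rectifier potassium channel (chr7:143112427-143112826), at 1.21 ± 0.10. Here 2 of 2 Gja5 regions, 3 of 3 Kcnq1 regions and 4 of 5 Kcnj5 regions had a DNA count of at least 100. Of all regions, 27.0% were lower at 100 to under 300 and 61.1% at 300 or more.

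The remaining lists were short. Of 8 regions near energy metabolism genes 3 were higher and 1 lower, with a median of 0.46. The 4 regions near endothelial genes included 3 higher ones, 2 near S1pr1, a sphingosine-1-phosphate receptor, at 2.29 and 5.04 and 1 near Vcam1, an adhesion molecule, at 4.44, and only 2 of the 4 had a DNA count of at least 100. Of 3 regions near smooth muscle genes 1 was higher, at Acta2, and 1 lower, at Myh11. No tested region lay near a gene of the fibroblast and matrix list. The shares in all lists are given beside 38.4% higher and 36.3% lower over all tested regions, and none was tested as a set. The lists differ in DNA count and were not matched for it. Of all regions, 62.2% were higher at DNA counts of 10 to under 100 and 20.1% at 300 or more. Above the Neg percentile of their DNA range lay 17.1% of all tested regions. This count is given above for the calcium handling and sarcomere lists only.

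Touching tiles were called in the same or in opposite directions. Over all tested regions 38.4% were higher and 36.3% lower, and how often pairs of unrelated regions would be called in opposite directions was not computed. Of 98 pairs of touching tiles 15 were both higher, 20 both lower and 26 called in opposite directions, and in the other 37 at least 1 tile did not pass. The median size of the difference in log2 ratio was 1.30, and Pearson's r between the tiles of a pair was 0.06, a description over pairs that differ in DNA count. Of the 26 opposite pairs, 8 were at least 2-fold on both sides, and in 6 of these the lower tile also had the larger DNA count and the higher tile a DNA count under 100. Among the 48 pairs with both DNA counts at 100 or more, 2 were both higher, 17 both lower and 9 opposite.

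In 2 pairs with ample DNA the tiles differed at least 2-fold in each direction. At Bri3 the tile that holds the upstream part of the Gm38675 promoter (chr5:144257975-144258374) had 430, 397, 377, 320 and 327 CPM in RNA against 142 to 163 in DNA, a log2 ratio of 1.24 ± 0.11. The next tile (chr5:144258375-144258774) had 129, 43.3, 58.0, 59.6 and 142 against 453 to 569, a ratio of -2.53 ± 0.30. The boundary between high and low values fell inside the printed window. At Efhd2 the tiles chr4:141866690-141867089 and chr4:141867090-141867489 stood at -1.85 and 1.44.

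**Figure D5:**
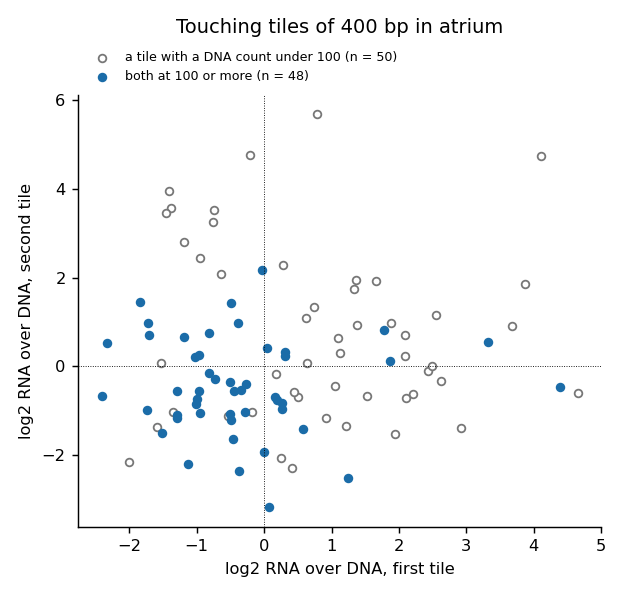
Log2 atrial RNA over AAV DNA of the first (horizontal axis) and second (vertical axis) tile of 98 touching pairs of 400 bp regions, with the 48 pairs at a DNA count of 100 or more in both tiles filled and the other 50 open. The points fill all 4 quadrants, with 15 pairs both higher, 20 both lower and 26 called in opposite directions.

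Tiles over promoters had shares of calls near those of all regions with as much DNA. Of 38 tiles that overlapped a RefSeq promoter window and had a DNA count of at least 100, 11 (28.9%) were higher and 18 lower, with a median of -0.35. Of all 1747 tested regions at that DNA minimum, 468 (26.8%) were higher and 873 lower, with a median of -0.39. The tile with the Gm32492 promoter, whose nearest protein-coding gene is Adrb1, the beta-1 adrenergic receptor, had 543, 494, 525, 683 and 500 CPM in RNA against 186 to 221 in DNA, a log2 ratio of 1.46 ± 0.11. At Zfp90 the tile with the Gm34026 promoter had 295 ± 43.9 against 111 ± 20.4 CPM, a ratio of 1.41 ± 0.15. The 2 tiles over Gm32352, inside Wfdc1, stood at 0.52 ± 0.09 and -2.33 ± 0.16, with 579 to 760 and 130 to 266 CPM in RNA against 458 to 494 and 881 to 1159 in DNA.

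For the ventricle, whose 5 RNA libraries were set directly against the atrial ones over the same regions, 804 of 2601 (30.9%) differed between chambers by edgeR. Of the 28 highest and lowest regions named by DNA range, 12 differed, among them Cilk1 at -1.11 ± 0.07 (log2 atrium over ventricle, adjusted p = 2.1e-08) and the region on chromosome 13 at 2.16 ± 0.08 (adjusted p = 6.3e-11).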

How the data were processed

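The authors deposited whole-number counts per region, not normalized. Per the submitters' processing notes reads were processed with Bowtie2 2.3.4.3 and cutadapt 2.5 on mm10, and per the labels' protocols DNA and RNA were copied with a primer that carries a molecular identifier. No source used here says if a count is a read or a molecule, so limits cover counting error only. The 5 atrial RNA and 5 AAV DNA libraries were compared over regions with 10 or more DNA counts on average, with edgeR 4.0.16 in R 4.3.3 (robust quasi-likelihood test, TMM factors, no covariates). Calls had a p under 0.05 after Benjamini-Hochberg adjustment over 2601 regions. Values per library are log2 CPM with a prior count of 2 minus the mean of the DNA libraries. The fit was tested on simulated data in which few regions changed, in random directions, with the same dispersion in RNA and DNA. In the real data 74.7% of regions were called, so the simulation does not show how the fit performs here. limma 3.58.1 and DESeq2 1.42.0 served as alternatives. Genes are the nearest protein-coding RefSeq gene body of GRCm38.p6 within 100 kb of the midpoint, without exons or strand.

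The members, gene lists and the rule for named regions were chosen with earlier results of these data known. The rule took regions that passed, whose libraries did not overlap and whose replicate 1 had the same sign and a log2 ratio of at least 1 in size: the 8 highest and 6 lowest at a DNA count of 300 or more, 4 and 4 at 100 to under 300, 3 and 3 at 10 to under 100 without ESC-Neg, the highest and lowest of each class at 100 or more, and up to 3 per gene list. It named 55 regions. Of these, 1 is not reported here but is included in every count. Further regions of listed genes, touching tiles and promoters were named after their values were seen. Replicate numbers did not pair the libraries. No 2 replicates agreed within sampling noise. Motif content over whole regions was not computed because no genome sequence was used here.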

Additional observations from a re-analysis of the deposited data

Results flagged for a closer look

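In 9 of 71 groups of 5 libraries a single library lay far from the others. The limit used would flag about 1 in 20 independent, normally distributed groups. These groups share libraries and regions and include regions picked as extremes, so the number due to chance is not known. Near Hint1 atrial replicate 1 was low at 42.8 CPM against 309 to 387 in the others, and DNA replicate 2 was high at 9.58 CPM against 3.33 to 4.72. Atrial replicate 1 was high near Snx6, at 5438 CPM against 1520 to 2326, and at the region without a gene on chromosome 17, at 2757 CPM against 1191 to 1642. The median log2 ratio of Neg regions was lowest in atrial replicate 1, at -0.43 against -0.36 to -0.34. Atrial replicate 4 was low inside Lamb3, at 292 CPM against 396 to 431. DNA replicate 3 was high inside Chadl, at 619 CPM, and inside Hip1, at 599 CPM. The 0.400 CPM of atrial replicate 3 inside Ahdc1 is a single count.

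By edgeR's quasi-likelihood test with Benjamini-Hochberg adjustment over all regions, 12 of the 28 highest and lowest regions differed between atrium and ventricle. The log2 ratio of atrium over ventricle was 1.27 inside Slc8a1, 1.92 near Hint1, 0.61 inside Lbh, 2.16 at the region without a gene on chromosome 13, 0.68 inside Lamb3 and 1.07 inside Chadl. It was -1.02 inside Insr, -0.44 at the highest region on chromosome 10, -0.21 near Rasl11b, -0.39 near Grasp, -0.34 inside Fhod3 and -1.11 inside Cilk1.

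The 488 regions without a DNA count were outside the comparison, yet took 0.0197% of the counts of atrial replicate 1 and 3.34%, 3.86%, 3.68% and 3.77% of those of replicates 2 to 5. Their RNA over DNA could not be computed.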

How the results depend on the processing

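The minimum DNA count moved the most results. Without one, 1930 regions were higher, 1701 of them at least 2-fold, and the share higher in MTF or P300 exceeded that in Neg by 1.90 percentage points in place of 21.9. The excess of MTF tags over ESC-Neg was 7.61 points in place of 25.5 and that of the gene lists over all regions 1.80 in place of 6.96, and 4.41% lay above the Neg percentile in place of 11.2%. These added regions have almost no DNA. Each fit with another minimum was scaled anew on its own regions. At a minimum of 100, 607 of 1747 regions were lower, in place of 873 of the same regions in the main fit. At least 2-fold were 397 higher and 250 lower, with 14.7 points for the lists and 19.5% above Neg. At 300 the calls among 1177 regions were 458 higher and 425 lower, in place of 237 and 719 in the main fit. At least 2-fold were 233 and 139, with 13.9 points and 22.4%. The median difference between neighbouring tiles was then 0.76 in place of 1.19. At 100 without atrial replicate 1, a choice made after seeing the data, 664 regions were higher. At least 2-fold were 392 higher and 277 lower, with 15.2 points and 18.7%. Regions lower at least 2-fold numbered 320 by library totals and 284 on Neg regions in place of 543. Above Neg stood 19.7% with the percentile of each DNA range, 18.9% with the 90th and 2.20% with the 99th percentile.

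DESeq2 called 1013 regions higher and 963 lower, with 2 adjusted p-values missing, and voom 934 and 996. A test against 1.5-fold called 774 and 636, and the fit without the most abundant region, added after seeing the data, 997 and 944. No region that passed both in the main fit and in one of these had the opposite sign. Leaving out each library in turn kept every count of calls within 1.5 times. The regions named by rule kept direction and call in 1119 of 1120 alternative values, the exception being Tbx3 at a minimum of 300. Shares of classes and lists stayed within 1.5 times in 850 of 912.

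The same replicate numbers did not pair the libraries: deviations of atrial and DNA libraries of 1 number correlated at -0.017 to 0.037. With the number as a replicate block 933 regions were higher and 953 lower, and 1859 of these 1886 calls were shared. Depth limits the regions under 100 DNA counts and those with fewer than 4 atrial counts.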
